A study of Drosophila melanogaster with 6 samples.

Results

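The Drosophila melanogaster tubulin genes alphaTub84B, alphaTub84D, alphaTub85E, alphaTub67C, betaTub56D, betaTub60D, betaTub85D, betaTub97EF, gammaTub23C and gammaTub37C were examined in olfactory projection neurons, the second-order neurons that carry odour signals out of the antennal lobe. They were picked by symbol, and all 10 were found among the 14138 gene rows of the deposited table. The series compares adult neurons, from flies of 5 days, with developing neurons taken 36 h after puparium formation, with 3 libraries in each group. All flies were untreated and raised alike, and all cells were sorted for a GFP marker, about 2k per library. The labels used here give no driver line, genotype or sex.

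Microtubules are hollow polymers of alpha- and beta-tubulin, which are added as a dimer. Gamma-tubulin, held in a ring complex, seeds new microtubules. Growing axons and dendrites need large amounts of the dimer, and mature neurons keep stable microtubules as tracks for transport. Drosophila encodes several alpha and beta isotypes. The best known roles are those of alphaTub84B and betaTub56D as the general isotypes, alphaTub67C and gammaTub37C as maternal forms of the egg and early embryo, and betaTub85D as the testis form.

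Values are CPM, a gene's reads for each 1000000 reads that fell on any row of the table. Library depth, recovered from the steps between low values, was 32764616 to 42217764 reads in adult and 18602612 to 34542641 reads in development. In development, the pairs of libraries holding replicate 1 gave 60.5 and 74.0 for chi-square over its degrees of freedom, against 18.1 for replicates 2 and 3, so that library stood apart. Adult pairs had 44.2 to 63.7. Whether the 3 libraries of each stage are from different flies or different sorts is not in the labels, so p-values reflect the library-to-library spread alone, and that could be technical. The neuronal and projection neuron markers were present in every library, with a summed level of 6543 to 6898 CPM in adult and 4764 to 6345 CPM in development, and the active zone gene brp, the most abundant over the 6 libraries, had 2012 ± 82.7 CPM in adult and 1798 ± 82.0 CPM in development (SD, n = 3 each). These 11 markers went both ways, with 4 lower and 4 higher in adult by limma, beside 37.9% and 27.2% of all genes tested. The acetylcholine synthesis gene ChAT had 569.2 ± 15.4 CPM in adult and 43.8 ± 8.63 CPM in development, and the projection neuron gene Oaz had 296.5 ± 11.8 CPM in adult and 463.4 ± 31.4 CPM in development, both named after their values were seen. In bulk samples, fewer cells of a type and less RNA per cell cannot be told apart. All statements of higher or lower below are on the scale of CPM, relative to the other RNA of the same library.

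Adult projection neurons held far less tubulin mRNA than developing ones. The 10 genes together made up 0.619%, 0.609% and 0.611% of the adult libraries, against 2.15%, 2.09% and 2.19% of the development libraries. The summed level was 6128 ± 53.9 CPM in adult and 21417 ± 505.5 CPM in development (SD, n = 3 each), a 3.495-fold lower level in adult. The groups did not overlap (exact two-sided permutation p = 0.1, and no lower value is possible with 3 libraries on each side). Summed alpha-tubulin was 2737 ± 96.7 CPM in adult and 8109 ± 230.6 CPM in development, and summed beta-tubulin was 3261 ± 118.9 CPM in adult and 13212 ± 389.9 CPM in development (exact permutation p = 0.1 for each). Summed gamma-tubulin went the other way, at 130.3 ± 19.95 CPM in adult and 95.9 ± 10.7 CPM in development (exact permutation p = 0.1). The summed level of 12 markers of dividing cells was also lower in adult, at 13.2 to 25.3 CPM in adult and 67.1 to 78.7 CPM in development. Of these only CycB3, PCNA and fzy passed a filter of at least 5 CPM in at least 3 libraries, and all 3 were lower in adult by limma, where 37.9% of all genes tested were lower. All 3 reached 5 CPM in every development library but not in every adult library. Their development libraries were thus enough to meet the filter, and these calls add no support. The cyclin gene CycB3, the most abundant, had 6.10 ± 4.19 CPM in adult and 28.44 ± 2.045 CPM in development (limma, adjusted p = 0.000127). The cyclin genes CycA and CycB, named after their values were seen, were low and overlapped between groups, with means of 0.743 and 0.2045 CPM in adult and 0.484 and 0.133 CPM in development. Of the 12 markers 4 were under 1 CPM in every library and none was at 0 in all of them. Their part in the tubulin values was not tested.

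**Figure D1:**
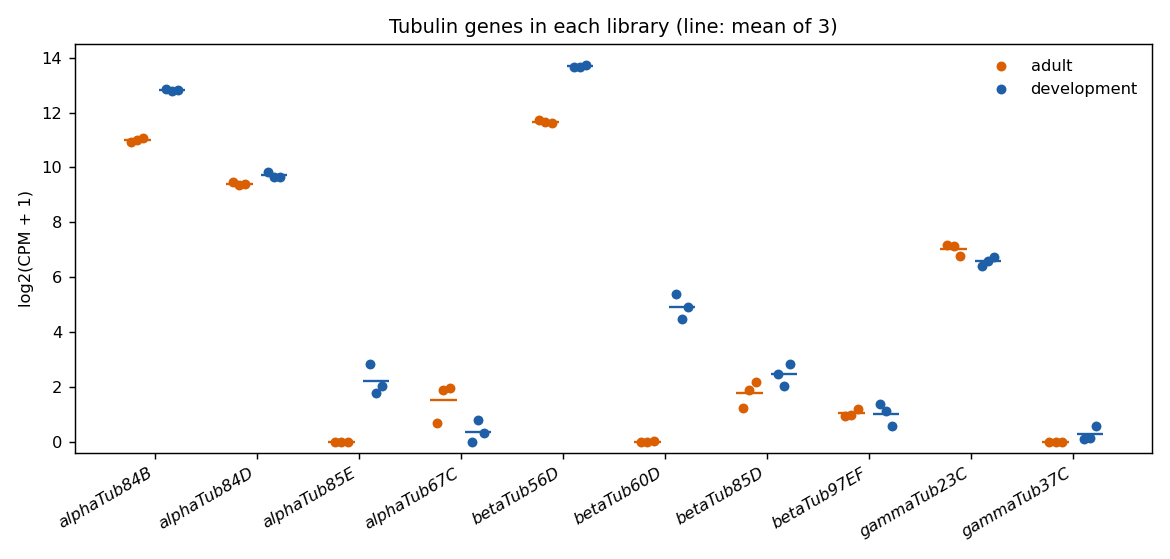
The plot gives log2(CPM + 1) of each tubulin gene in each library, with adult points on the left and development points on the right of each pair and a line at the mean of 3. The abundant genes alphaTub84B and betaTub56D lie lower in all 3 adult libraries, gammaTub23C lies higher, and betaTub60D and alphaTub85E are at or near 0 in adult.

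Of the 10 genes, 5 passed the filter on low values (at least 5 CPM in at least 3 of the 6 libraries) and were tested by limma on log2(CPM + 1), in 1 fit over all 6814 genes that passed. Among these 5, 4 were lower and 1 was higher in adult at a Benjamini-Hochberg adjusted p under 0.05. Over all 6814 genes tested 65.1% passed in either direction, 37.9% lower and 27.2% higher. This balance depended on scaling, with 2174 lower and 2235 higher by the median of ratios. That all 5 passed is thus not a result about the family, and betaTub60D entered the test through its development libraries alone. Adult and development libraries did not overlap for 69% of all genes tested, with adult below for 40.2%.

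The general beta gene betaTub56D (FBgn0284243; 2R, 19447319 to 19451600, minus strand, 3 exon blocks; coordinates here and below are those of BDGP6.54, Ensembl) was the most abundant tubulin gene. It had 3389, 3228 and 3154 CPM in the adult libraries, against 13028, 12883 and 13616 CPM in the development libraries. Every adult library lay far below every development library, and the replicates of each group lay close together. It fell by 2.02 ± 0.080 on the log2 scale (SE; limma, adjusted p = 1.42e-10), which is 4.045-fold, and 3.58% of the genes tested had a lower log2 fold change. By mean CPM it ranked 23 of all rows in adult and 4 in development.

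The general alpha gene alphaTub84B (FBgn0003884; 3R, 7086599 to 7088839, plus strand, 2 exon blocks) followed closely. It had 1936, 2062 and 2159 CPM in adult and 7406, 7073 and 7308 CPM in development, again with no overlap. It fell by 1.82 ± 0.082 on the log2 scale (SE; limma, adjusted p = 4.48e-10), or 3.54-fold, and 4.83% of genes tested had a lower log2 fold change. Its rank was 40 in adult and 8 in development. Relative to the median log2 fold change of all genes tested, which was -0.153, the change was -1.67 for alphaTub84B and -1.86 for betaTub56D.

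The other broadly expressed alpha gene, alphaTub84D (FBgn0003885; 3R, 7530753 to 7532732, plus strand, 1 exon block), encodes a protein almost identical to that of alphaTub84B. It had 716.4, 649.4 and 680.3 CPM in adult and 921.3, 795.9 and 810.7 CPM in development. The groups did not overlap, but the gap was small beside that of alphaTub84B. It fell by 0.30 ± 0.093 on the log2 scale (SE; limma, adjusted p = 0.0110). Relative to the median of all genes tested the change was -0.15. The call ended with scaling by the median of ratios (-0.15 on the log2 scale, adjusted p = 0.178) and without adult replicate 2 (-0.27, adjusted p = 0.0584). Reads that match both alpha genes cannot be assigned with certainty, and the sources used here do not give how they were handled.

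**Figure D2:**
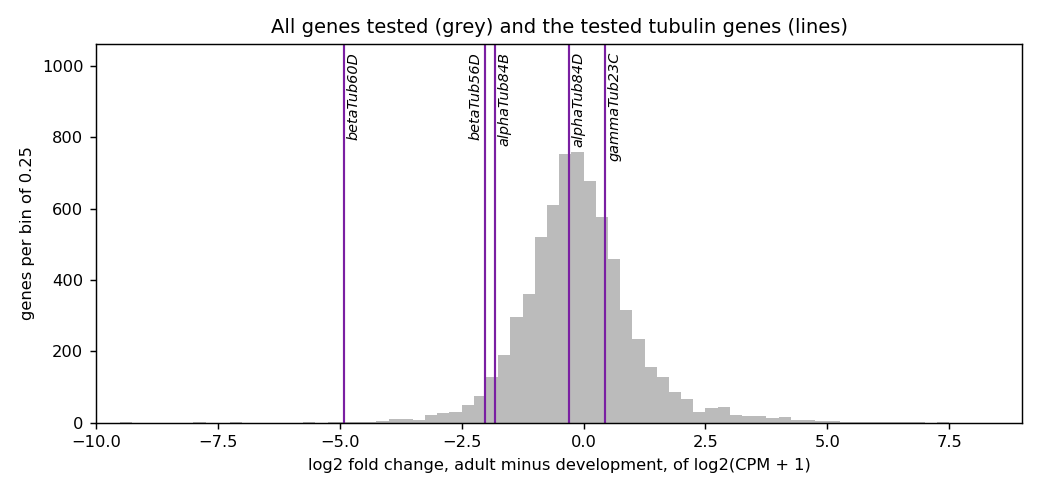
The histogram gives the number of tested genes by log2 fold change (adult minus development, bins of 0.25), with vertical lines at the 5 tested tubulin genes. betaTub56D and alphaTub84B lie in the lower tail, with 3.58% and 4.83% of genes below them, alphaTub84D lies near the centre, and gammaTub23C lies to its right.

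The makeup of the alpha pool differed between the stages. alphaTub84D supplied 27.0%, 23.9% and 23.9% of summed alpha CPM in the adult libraries, against 11.1%, 10.1% and 9.98% in the development libraries. The adult shares were more than the highest development share in every library, and the counting error of a share was at most 0.28 percentage points either way (95% Wilson interval). The means were 24.95% ± 1.77 in adult and 10.4% ± 0.587 in development (SD, n = 3 each; exact permutation p = 0.1). Put as a ratio, alphaTub84B exceeded alphaTub84D in CPM by 3.02 ± 0.273 times in adult and by 8.646 ± 0.5305 times in development. These shares do not depend on how libraries are scaled to each other. They may depend on how reads matching both alpha genes were handled, which is not given. Per kilobase of exon the shares were 22.7% ± 1.67 in adult and 9.30% ± 0.532 in development.

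The balance of alpha to beta mRNA moved as well. The ratio of summed alpha to summed beta CPM was 0.782, 0.840 and 0.900 in adult and 0.637, 0.610 and 0.595 in development. All adult ratios lay above all development ratios (exact permutation p = 0.1). The size of the alpha sum may also depend on how reads shared by the alpha genes were handled. Without alphaTub84D the shift was smaller: the ratio of alphaTub84B to betaTub56D was 0.5713, 0.639 and 0.685 in adult and 0.5685, 0.549 and 0.537 in development, so adult replicate 1 lay just above development replicate 1 (exact permutation p = 0.1). The beta pool itself was almost entirely betaTub56D, with 99.9% ± 0.044 in adult and 99.7% ± 0.083 in development.

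**Figure D3:**
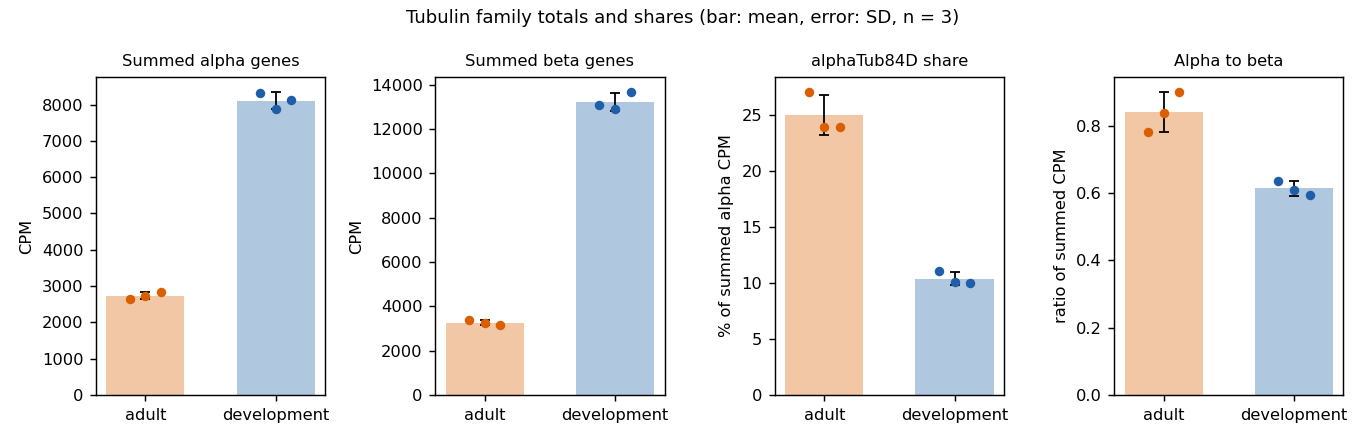
The bars give the mean of the 3 libraries of each group with SD, and points give each library, for summed alpha CPM, summed beta CPM, the percentage of alpha CPM from alphaTub84D, and the ratio of alpha to beta CPM. Both sums are lower in adult (2737 and 3261 CPM) than in development (8109 and 13212 CPM), while the alphaTub84D share and the alpha to beta ratio are higher in adult.

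A minor beta isotype was detected in development and nearly undetected in adult. betaTub60D (FBgn0288686; 2R, 24305881 to 24313099, plus strand, 4 exon blocks), known in Drosophila from embryonic mesoderm and developing muscle, had 0, 0 and 0.0246 CPM in adult and 41.1, 21.2 and 28.9 CPM in development. The adult value rests on 1 read in 115650495, against 2551 reads in 84284656 in development. The level in development was 3500.3 times that in adult after scaling to depth (exact 95% interval 627.7 to 138309, for counting error only). Without development replicate 1, which had the highest value, the ratio was 2764. betaTub60D met the filter on low values through its development libraries alone, so its limma call (adjusted p = 9.47e-09) adds no support to these reads. In development betaTub60D still made up only 0.230% ± 0.077 of summed beta CPM.

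alphaTub85E (FBgn0003886; 3R, 9731221 to 9733250, minus strand, 3 exon blocks), known in Drosophila from chordotonal organs, muscle and testis, showed the same direction at a lower level. It had no read in any adult library and 6.13, 2.46 and 3.06 CPM in development, or 333 reads. The count of 0 allows up to 0.0259 CPM in adult (3 reads over the group). With the development reads taken as counted, the level was at least 152-fold lower in adult, and at least 103-fold lower without development replicate 1. It did not pass the filter. A filter of 1 CPM in 3 libraries was met through its development libraries alone. Its call there (limma over 8031 genes, adjusted p = 0.000116) thus adds no support to these reads.

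Markers of muscle and of sensory support cells were read beside these isotypes. Of 9 muscle markers, 3 were under 1 CPM in every library, and their summed level was 2.81 to 7.21 CPM in adult and 11.5 to 11.7 CPM in development, and the most abundant over the 6 libraries, the myosin light chain gene Mlc2, had 0.966 ± 0.126 CPM in adult and 3.75 ± 0.914 CPM in development. In adult alone the titin-like gene bt, named after its values were seen, was above it, with 2.37 ± 1.75 CPM in adult and 0.884 ± 0.393 CPM in development. Of 7 matched markers of sensory support cells and chordotonal organs, 3 were under 1 CPM in every library. Their sum, 2719 to 2765 CPM in adult and 3470 to 4194 CPM in development, was mostly pros (2687 ± 25.9 CPM in adult and 3703 ± 390.7 CPM in development), a gene that neurons also use. Also in that list were 2 genes chosen after their values were seen. The sensory proneural gene ato had 0.0285 ± 0.0307 CPM in adult and 14.6 ± 4.47 CPM in development. The olfactory receptor gene Orco had 28.85 ± 6.51 CPM in adult and 1.95 ± 1.015 CPM in development. Each met the filter on low values through 1 group alone. No marker in either list was at 0 in all 6 libraries. Their part in the values of betaTub60D and alphaTub85E was not tested.

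The remaining alpha and beta genes were near the limit of use in both groups, and none of them passed the filter. betaTub85D (FBgn0003889; 3R, 9408383 to 9410282, minus strand), the isotype of the sperm tail, had 1.35, 2.69 and 3.57 CPM in adult and 4.59, 3.13 and 6.18 CPM in development, with overlapping groups. Of 10 matched testis markers 8 were under 1 CPM in every library, and their sum was 1.33 to 2.84 CPM in adult and 0.674 to 1.53 CPM in development. The most abundant over the 6 libraries, can, had 1.73 ± 1.25 CPM in adult and 0.0579 ± 0.1003 CPM in development. The part of these markers in the betaTub85D values was not tested. alphaTub67C (FBgn0087040; 3L, 9681268 to 9683370, plus strand), the maternal isotype, had 0.616, 2.75 and 2.90 CPM in adult and 0, 0.724 and 0.269 CPM in development, and adult replicate 1 fell within the development range. betaTub97EF (FBgn0003890; 3R, 27967008 to 27988384, minus strand, 8 exon blocks), an isotype best known from the Drosophila gut, had 0.924, 0.977 and 1.303 CPM in adult and 1.61, 1.16 and 0.484 CPM in development, also overlapping. When tested without a filter, betaTub85D (adjusted p = 0.248), alphaTub67C (0.0729) and betaTub97EF (0.948) did not pass (limma over 14138 genes). A further beta locus outside the 10, betaTub65B, had 2.59 ± 1.09 CPM in adult and 4.22 ± 1.12 CPM in development.

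The gamma-tubulin genes were the least abundant class. gammaTub23C (FBgn0260639; 2L, 2972891 to 2974858, plus strand, 3 exon blocks), the form of somatic cells, had 143.9, 139.5 and 107.4 CPM in adult and 85.0, 96.1 and 105.9 CPM in development. The groups were apart only narrowly, since adult replicate 3 lay just above development replicate 3. It rose by 0.44 ± 0.141 on the log2 scale (SE; limma, adjusted p = 0.0149), or 0.59 relative to the median of all genes tested. The call ended without adult replicate 1 (log2 fold change 0.36, adjusted p = 0.0668), without adult replicate 2 (0.38, adjusted p = 0.0608) and with no filter (0.44, adjusted p = 0.0556). gammaTub37C (FBgn0010097; 2L, 19183863 to 19185726, minus strand, 4 exon blocks), the maternal form, had no read in adult and 0.0642, 0.116 and 0.484 CPM in development, or 15 reads, at least 6.86-fold lower in adult by the floor of 3 reads over the group. Of these 15 reads 9 were in development replicate 3, and without it the level was at least 3.52-fold lower. Both bounds take the development reads as counted, so with so few reads the gap may be smaller. With no filter it did not pass (limma over 14138 genes, adjusted p = 0.161). Among 8 matched ovary and early germline markers 4 were under 1 CPM in every library. Their sum, 258.1 to 314.5 CPM in adult and 242.7 to 304.1 CPM in development, was mostly gus (226.2 ± 15.8 CPM in adult and 263.2 ± 28.1 CPM in development). In that list the germline genes aub and grk, named after their values were seen, went opposite ways. aub had 52.3 ± 15.8 CPM in adult and 6.96 ± 2.76 CPM in development (limma, adjusted p = 1.145e-06), and grk had 0.0834 ± 0.0650 CPM in adult and 3.72 ± 0.714 CPM in development. Their part in the values of the maternal isotypes was not tested.

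None of the exons of the 10 genes overlapped an exon of another gene annotated in BDGP6.54. With those gene models the use of strand would not bear on these values, but the models used in counting are not given. To compare levels between genes, CPM was divided by exon length in kilobases. For alphaTub84B and alphaTub84D these levels may also depend on how their shared reads were handled. In adult the order was betaTub56D (1743 ± 64.3 CPM per kilobase), alphaTub84B (1172 ± 63.9), alphaTub84D (344.5 ± 16.95) and gammaTub23C (70.4 ± 10.8), each apart from the next in every library. Below them came betaTub85D (1.38 ± 0.606), alphaTub67C (1.29 ± 0.790) and betaTub97EF (0.571 ± 0.110); the first overlapped the second and the second overlapped the third. In development the same 4 genes led in the same order, with 7050 ± 207.7, 4145 ± 97.5, 425.6 ± 34.6 and 51.7 ± 5.65 CPM per kilobase. betaTub60D came next at 12.1 ± 3.99, followed by betaTub85D (2.52 ± 0.830) and alphaTub85E (2.49 ± 1.26), which overlapped each other. The lowest were betaTub97EF, alphaTub67C and gammaTub37C, each overlapping the next.

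The genes whose pattern over the 6 libraries was nearest to each abundant tubulin gene were found by Euclidean distance between log2(CPM + 1) profiles, each centred on its own mean, among 3273 other genes. Nearest to alphaTub84B were Tcp-1eta, a subunit of the chaperonin that folds tubulin (distance 0.126), Ugt (0.133) and chm (0.149). Nearest to betaTub56D were the proteasome subunit gene Prosalpha7 (0.145), Pdi, which encodes a protein disulfide isomerase (0.167), and Non2 (0.168). For alphaTub84D they were DIP1 (0.1002), Snx3 (0.114) and Cdc5 (0.129), and for gammaTub23C they were the cytoskeletal linker gene shot (0.160), beg (0.168) and LTV1 (0.189). With 2 groups, such a distance mainly reflects a like difference between adult and development.

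Other genes of tubulin and microtubule biology, with genes of cilia and axonemes among them, were grouped in 7 lists. Of 99 listed genes 95 were matched, 57 were tested, and 28 were lower and 16 higher in adult, against 37.9% lower and 27.2% higher over all genes tested. Of the 57, 3 genes, all of them called, met the filter through the libraries of 1 group alone, with no library of the other group at 5 CPM. For Sas-4, Sas-6 and SAK, also called, the group with the higher level was enough to meet the filter. In the other group only some libraries reached 5 CPM. The clearest pattern was in tubulin folding, where 18 of 19 genes were lower, none was higher, and the median log2 fold change was -1.38, beside -0.153 over all genes tested. All 8 subunits of the CCT chaperonin, the ring that folds new tubulin and actin, were lower, with log2 fold changes from -2.38 to -1.01 and no overlap between groups. CCT4, listed as CG5525, had 98.2 ± 6.68 CPM in adult and 513.0 ± 9.91 CPM in development (SD, n = 3 each; limma, adjusted p = 2.64e-10). CCT5 had 85.1 ± 7.42 CPM in adult and 433.3 ± 27.55 CPM in development (limma, adjusted p = 7.34e-10). All 6 subunits of prefoldin, which hands unfolded tubulin to the chaperonin, were lower as well, from -1.63 to -0.42, though Pfdn4 (adjusted p = 0.0375 as fitted by limma) lost its call in 8 of 16 alternatives. Of the 5 cofactors that join alpha and beta into a dimer, 4 were lower, of which TBCE (adjusted p = 0.0473 as fitted by limma) also lost its call in 8 of 16 alternatives, with adjusted p up to 0.243. TBCC had 75.5 ± 15.5 CPM in adult and 78.1 ± 9.99 CPM in development (limma, adjusted p = 0.7605). Without development replicate 1 the folding count was again 18 lower and 0 higher, and with median of ratios scaling it was 16 lower and 0 higher.

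Enzymes that modify tubulin moved in both directions, with 4 of 8 tested genes lower and 3 higher. Over all genes tested the shares were 37.9% lower and 27.2% higher. Atat, which acetylates alpha-tubulin inside the microtubule, had 241.3 ± 18.2 CPM in adult and 547.3 ± 47.5 CPM in development and fell by 1.18 ± 0.103 on the log2 scale (SE; limma, adjusted p = 2.81e-07). HDAC6, which removes that acetyl group, had 79.55 ± 25.98 CPM in adult and 32.6 ± 9.85 CPM in development and rose by 1.25 ± 0.232 (limma, adjusted p = 0.000321). The other tubulin deacetylase gene, Sirt2, was higher too, with 142.2 ± 10.6 CPM in adult and 95.4 ± 17.9 CPM in development (limma, adjusted p = 0.002655; named after its value was seen). Of the 4 tested members of the tubulin tyrosine ligase-like family, whose enzymes add amino acid side chains to tubulin, 3 were lower. Among these 3, TTLL4B, listed as CG3964, had 0.107 ± 0.053 CPM in adult and 14.7 ± 0.976 CPM in development, and it met the filter through its development libraries alone. NnaD, the gene of a carboxypeptidase that trims such chains, had 21.3 ± 2.09 CPM in adult and 13.1 ± 4.57 CPM in development (limma, adjusted p = 0.0181). Its call ended without development replicate 1 (adjusted p = 0.0527) and without development replicate 3 (0.0921).

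Among genes that sever or destabilise microtubules, 2 of 6 were lower and 2 were higher, beside 37.9% and 27.2% of all genes tested. The stathmin gene stai, whose product binds free tubulin dimers, had 209.2 ± 9.16 CPM in adult and 533.0 ± 38.8 CPM in development and fell by 1.34 ± 0.098 on the log2 scale (limma, adjusted p = 5.205e-08). The katanin-like severing gene kat-60L1 had 442.1 ± 23.4 CPM in adult and 673.4 ± 99.05 CPM in development (limma, adjusted p = 0.000309). The depolymerising kinesin gene Klp10A went the other way, with 207.3 ± 52.0 CPM in adult and 84.7 ± 44.7 CPM in development (limma, adjusted p = 0.000706). Klp67A, also counted as higher, had 7.015 ± 1.187 CPM in adult and 2.90 ± 0.989 CPM in development and met the filter through its adult libraries alone. The calls of stai, kat-60L1 and Klp10A held in all alternatives run. That of Klp67A held as well, but with its entry through adult libraries alone it adds no support. The severing genes spas and Kat60 missed the threshold (adjusted p = 0.7625 and 0.6065 by limma).

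The partners of gamma-tubulin gave a mixed picture. Of 6 tested genes of the gamma-tubulin ring complex 2 were higher, 1 was lower and 3 did not pass. For all genes tested, 27.2% were higher and 37.9% lower. Grip91, a core ring subunit, had 49.4 ± 8.205 CPM in adult and 19.8 ± 1.36 CPM in development and rose by 1.27 ± 0.174 on the log2 scale (SE; limma, adjusted p = 2.29e-05). Its partner in the core of the ring, Grip84, had 69.7 ± 13.7 CPM in adult and 74.1 ± 2.69 CPM in development (limma, adjusted p = 0.5595; named after its value was seen). Grip128 was higher (limma, adjusted p = 0.0472), but not without adult replicate 1 (0.0801) or 2 (0.184), or development replicate 2 (0.205) or 3 (0.115). Grip71, which links the ring to augmin, was lower (limma, adjusted p = 0.0186), but not without adult replicate 3 (0.0572) or development replicate 1 (0.0514) or 2 (0.0795). The Grip71 call also ended with scaling by the median of ratios (limma, adjusted p = 0.0699) and with quantile normalization (0.0580). Of 8 augmin genes, whose complex recruits the ring to existing microtubules, 2 were tested, and dgt6 was higher (21.9 ± 2.17 CPM in adult and 7.77 ± 3.65 CPM in development; limma, adjusted p = 0.000336). Among 12 tested centrosome and minus end genes 6 were higher and 2 lower, beside the same 27.2% and 37.9%. Of these 8 calls 3 held in all alternatives run. Sas-6, a centriole cartwheel gene, had 11.5 ± 2.59 CPM in adult and 5.12 ± 1.39 CPM in development (limma, adjusted p = 0.00443). The centriolar gene ana1 was higher (limma, adjusted p = 0.0235), but not without adult replicate 1 (0.125) or development replicate 2 (0.109). Bld10, a cartwheel gene listed as Cep135, was lower with 7.71 ± 1.74 CPM in adult and 17.7 ± 3.00 CPM in development (limma, adjusted p = 0.000919). SAK, the kinase gene of centriole duplication, was lower too (limma, adjusted p = 0.0220), but not without adult replicate 2 (0.0897) or development replicate 1 (0.0592) or 3 (0.0923).

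**Figure D4:**
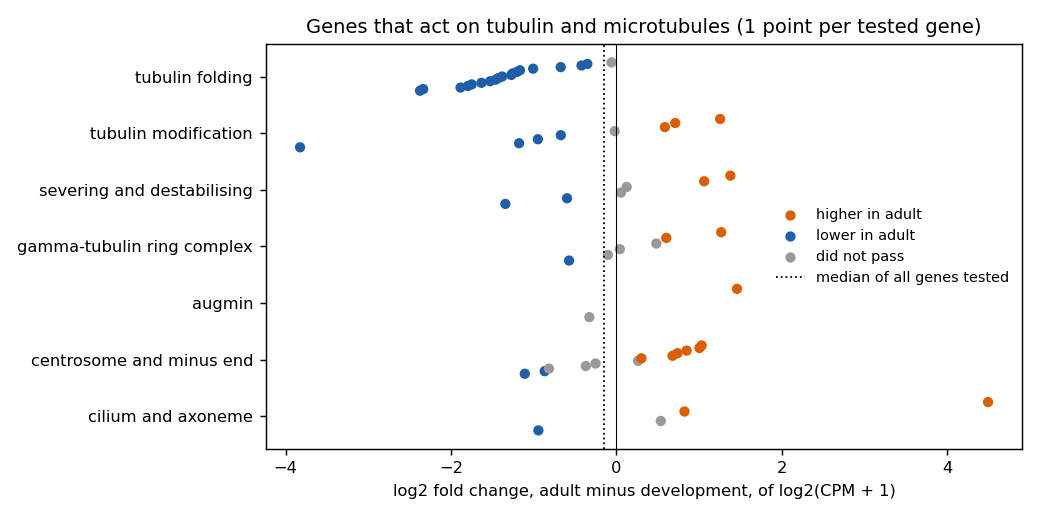
Each point is a tested gene of 1 of 7 lists, placed by its log2 fold change (adult minus development) and coloured by whether it passed at an adjusted p under 0.05 (limma). Tubulin folding genes lie to the left of the dotted line at the median of all genes tested, with TBCC slightly to its right, while the other lists spread to both sides.

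Markers of glia and blood cells were also read as a check of the sort. The glial identity gene repo had 1.08 ± 0.266 CPM in adult and 0.851 ± 0.091 CPM in development. The summed glial markers, 490.2 to 629.2 CPM in adult and 313.3 to 353.3 CPM in development, were mostly Gs2 and nrv2. Of 6 tested, 2 were lower and 2 higher in adult by limma, beside 37.9% and 27.2% of all genes tested. Beyond Gs2 and nrv2 the calls were alrm and wrapper, both named after their values were seen. alrm had 26.3 ± 6.06 CPM in adult and 8.40 ± 4.33 CPM in development. wrapper had 3.365 ± 2.34 CPM in adult and 7.07 ± 0.680 CPM in development, and its call ended in 5 of 15 alternatives. nrv2, the most abundant over the 6 libraries, had 194.6 ± 13.4 CPM in adult and 243.3 ± 12.6 CPM in development, while Gs2, named after its values were seen, had 333.5 ± 67.35 CPM in adult and 50.9 ± 9.66 CPM in development. The nrv2 call ended in 4 of 16 alternatives, among them scaling by the median of ratios (limma, adjusted p = 0.173). Of 8 hemocyte markers 3 were under 1 CPM in every library, and the sum of 322.2 to 349.3 CPM in adult and 423.6 to 536.4 CPM in development was mostly Pxn (238.7 ± 13.3 CPM in adult and 410.5 ± 71.2 CPM in development). The hemocyte marker crq, named after its values were seen, went the other way (87.2 ± 2.89 CPM in adult and 47.3 ± 10.45 CPM in development; limma, adjusted p = 0.000253). The part of these markers in the tubulin values was not tested. The row of the mCD8-GFP marker had 13555 ± 1013 CPM in adult and 14853 ± 1929 CPM in development and missed the threshold (adjusted p = 0.304 by limma).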

How the data were processed

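Projection neurons sorted for GFP were profiled by SMART-seq2, per the labels' protocols. Per the submitters' processing notes, STAR 2.4.2a and HTSeq 0.7.1 were used; the sources used here do not give their settings, the genome build, strand use or the treatment of reads with several matches. The deposited values are log2(CPM + 1) per gene, made by the authors. All 66732 values above 0 gave whole reads within 0.1 read, so depth was recovered (18602612 to 42217764 reads per library). Of 14139 rows, 1 had no symbol and was left out (at most 8.6e-05% of a library).

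Genes with at least 5 CPM in at least 3 of 6 libraries (6814) were tested with limma 3.58.1 in R 4.3.3 (lmFit, and eBayes with trend), with Benjamini-Hochberg adjustment over all of them and a threshold of 0.05; the fit was first tested on simulated data. Fold changes on log2(CPM + 1) understate the change of low genes. Sums and ratios were compared by exact two-sided permutation. Alternatives were other pseudocounts, filters, scalings, voom on recovered reads, array weights, a replicate block and leaving out each library. Same-numbered libraries did not deviate together, and the replicate numbers were not used in the main test. Intervals cover counting error only. Floors (3 reads over a group) cover it for the count of 0 alone and take the reads of the other group as counted.

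All 10 tubulin genes are reported. Of each list of companion genes, up to 2 rising and 2 falling genes with the largest called changes are named, and of each marker list the most abundant gene. The members and lists were chosen with earlier results of these data known. Listed genes that were not matched, among them alphaTub90E, were not analysed here.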

Additional observations from a re-analysis of the deposited data

How the results depend on the processing

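Over 16 alternatives the counts of all genes were 2174 to 2815 lower and 1559 to 2235 higher in adult (2174 and 2235 by the median of ratios, 2265 and 2115 by quantile normalization), and 3 to 5 tubulin genes were lower. The count of 5 came with a filter of 1 CPM or no filter, where alphaTub85E, with no adult read, was added. The log2 fold change was -1.88 to -1.67 for alphaTub84B, -2.09 to -1.86 for betaTub56D and -10.6 to -2.78 for betaTub60D. All 3 calls held throughout, but betaTub60D met the filters through its development libraries alone, so its call is no support. The range of betaTub60D follows the pseudocount, since its adult level rests on 1 read. alphaTub84D ranged from -0.46 to -0.15 (adjusted p 0.000598 to 0.178) and gammaTub23C from 0.35 to 0.59 (adjusted p 0.00249 to 0.0668). The count of tubulin genes higher in adult, 1, was 0 with no filter, and 0 to 1 when single libraries were left out (0 without adult replicate 1 or 2). The cause was not tested. Of 44 calls among companion genes 32 held in all alternatives and none reversed. Among the 32, TTLL4B, Klp67A and Tektin-C met the filter through 1 group alone, so their calls are no support. With the replicate number as a block, 2573 genes were lower and 1855 higher, with 4 tubulin genes lower and 1 higher as without it; same-numbered libraries had correlations of -0.028, 0.042 and -0.011, and 1 of 3 adult libraries correlated best with its own number. Without development replicate 1, 18 folding genes were lower; that alternative for the lists was chosen after seeing the data. Depth limits alphaTub85E, alphaTub67C, betaTub85D, betaTub97EF and gammaTub37C, with 0 to 366 reads per group.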

Other observations

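Genes of cilia and axonemes, the microtubule structures of sensory endings and sperm tails, were mostly low in both groups: of 26 matched, 9 were under 1 CPM in every library and 4 were tested. Tektin-C, whose product is a filament protein of axonemes, had 63.0 ± 3.79 CPM in adult and 1.87 ± 0.474 CPM in development (SD, n = 3 each), and it met the filter on low values through its adult libraries alone. Oseg6, a gene of intraflagellar transport, had 11.5 ± 4.25 CPM in adult and 22.75 ± 6.90 CPM in development (limma, adjusted p = 0.00823). Its call ended with no filter (limma, adjusted p = 0.0700). Oseg1, of the same transport system, was higher in adult (limma, adjusted p = 0.0443), but not without adult replicate 1 (0.192) or 2 (0.0945), or development replicate 1 (0.135) or 2 (0.0957). The regulator of ciliary genes Rfx had 12.6 ± 3.67 CPM in adult and 8.52 ± 2.97 CPM in development (limma, adjusted p = 0.128; named after its value was seen).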
